A study of Mus musculus with 9 samples.

Results

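Of the orphan and adhesion G protein-coupled receptor genes of the mouse, 58 were read at a mean normalized read count of at least 10 over all 9 samples of CD103+ lung dendritic cells, among 95 rows whose symbols belong to these families and 45535 rows with any gene symbol. The members were chosen by symbol (Gpr followed by a number, or Adgr with a family letter from a to g) and by that mean, with Gpr183 and Adgre1 left out, so their presence above the minimum is a property of the choice. Of the 58, 45 carry a Gpr symbol and 13 an Adgr symbol. The other 37 rows lay below the minimum, 16 of them with a mean under 1 and 3 at 0 in all 9 samples. Just inside the minimum were Gpr15lg (mean 10.4), Gpr179 (12.7) and Gpr17 (14.1), and outside it, close to the minimum, were Gpr61 (9.83) and Gpr135 (9.22). Among the members, 1 averaged under 10 before culture (Gpr15lg) and 3 under 10 after it (Adgrd1, Gpr3 and Gpr31b), so these 4 entered through the other group.

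The label fits most but not all of these rows. Gpr15lg is named for the receptor Gpr15 but encodes a secreted peptide ligand, Gpr137b-ps is a transcribed pseudogene, and the annotation used for positions types Gpr141b as a long non-coding RNA. A further 7 genes (Gpr107, Gpr108, Gpr137, Gpr137b, Gpr137c, Gpr155 and Gpr180) encode membrane proteins that lie outside the classical receptor classes. All are kept and described by their symbols.

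The cells came from C57/BL6j mice given bleomycin, a drug that injures the lung, for 7 days. Lungs were digested with collagenase, and cells carrying the integrin CD103 were taken on magnetic beads. RNA was made at once in 5 samples (before culture). In the other 4 samples (after culture) the cells were first kept for 18 h in RPMI, a standard culture medium, with serum, penicillin and streptomycin added. Both groups had bleomycin, no sample of untreated lung is used here, and whether mice were pooled is not stated, so p-values measure the spread between these samples, which may be technical. In the listings below, values follow the replicate numbers, 1 to 5 before culture and 1 to 4 after it.

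G protein-coupled receptors span the plasma membrane and pass a signal from a ligand outside to G proteins inside, which set second messengers such as cyclic AMP and calcium. An orphan receptor is one whose natural ligand is unknown or disputed. Adhesion receptors carry a long extracellular part that is cut from the membrane part and can bind matrix or other cells, and an exposed internal peptide can then activate the receptor. In dendritic cells, receptors of these kinds are known to take part in sensing of lipids and acid in tissue, in adhesion and in migration.

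Sequences are shown first for the members where they bear on the reading of the values. Gpr137b and Gpr137b-ps are both on chromosome 13 (chr13:13357620-13394014 and chr13:12615057-12650388, both on the minus strand, GRCm38), and the 1179 coding bases of Gpr137b matched the pseudogene at 99.6% over their alignment. Reads from this part that cover no differing base cannot be placed by sequence alone. The stretch of 90 bases below, chosen after the alignment because it is coding and holds 2 differences, shows how close the transcripts are. Capitals mark the differing bases.
Gpr137b: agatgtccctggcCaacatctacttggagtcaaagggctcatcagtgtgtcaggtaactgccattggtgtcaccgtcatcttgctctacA
Gpr137b-ps: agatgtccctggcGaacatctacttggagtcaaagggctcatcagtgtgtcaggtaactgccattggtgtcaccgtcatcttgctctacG

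The promoters of Adgrg6 and Adgrf5, the adhesion genes with the largest rise and the largest fall, were compared next. The 250 bases before the start site are shown 5′ to 3′ on the strand of the gene, from RefSeq on GRCm38.p6, at chr10:14545037-14545286 (minus strand) for Adgrg6 and chr17:43360181-43360430 (plus strand) for Adgrf5, which has a further listed start site. Capitals mark a GAGGAA match, the core letters of sites for the myeloid factor PU.1.
Adgrg6: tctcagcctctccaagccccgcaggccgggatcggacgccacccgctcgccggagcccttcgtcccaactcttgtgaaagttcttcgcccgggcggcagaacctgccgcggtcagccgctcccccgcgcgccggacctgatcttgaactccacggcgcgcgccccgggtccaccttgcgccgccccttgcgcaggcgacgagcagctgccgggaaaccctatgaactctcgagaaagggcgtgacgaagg
Adgrf5: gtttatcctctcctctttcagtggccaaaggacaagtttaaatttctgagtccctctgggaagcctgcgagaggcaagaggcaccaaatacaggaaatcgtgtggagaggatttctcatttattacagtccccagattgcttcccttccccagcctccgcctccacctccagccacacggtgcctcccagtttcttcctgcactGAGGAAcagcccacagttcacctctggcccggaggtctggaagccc

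RefSeq promoters of 300 bases (250 before and 50 after the start) were listed for 42 of the 58 members, 55 promoters in all. Both strands were searched for GAGGAA (PU.1), TGANTCA (AP-1), TGACGTCA (cyclic AMP response element) and an interferon regulatory factor motif (GAAA, any 2 bases, GAAA), letter by letter, and no motif was removed for overlapping another. GAGGAA stood in 19 of the 55 (34.5%), against 28.3% of all 32851 listed promoters. TGANTCA stood in 6 (10.9% against 7.81%), in Adgrg1, Gpr146, Gpr15, Gpr3, Gpr35 and Gpr39, and the interferon regulatory factor motif in 4 (7.27% against 3.44%), in Gpr141b, Gpr15, Gpr18 and Gpr19. TGACGTCA stood in 0 of the 55, against 1.79% of all. A match describes letters and is not a measured binding site. The Adgrg6 promoter held none of the 4. The Adgrf5 promoter shown held GAGGAA from base 46 before the start, and the promoter at the further start site of Adgrf5 held none of the 4.

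Depth was 14.7 to 35.3 M reads per sample in rows with a symbol, and a single read stood for 0.758 to 1.79 normalized counts. Itgae, which encodes CD103, averaged 18138 ± 1537 in the 5 samples before culture and 1727 ± 335 in the 4 samples after it (mean ± SD, as throughout), with a log2 fold change of −3.41 (limma adjusted p = 4.45e-11). The summed level of 9 markers of type 1 conventional dendritic cells (cDC1) ran from 119197 to 146231 before and from 29262 to 34287 after culture. Of the 9, 6 were called lower and 3 higher (Batf3, Zbtb46 and Flt3), and Wdfy4 alone gave 75717 of the mean sum of 133805 before culture and 4761 of 32574 after it. Markers of other cells were read in both groups. Summed endothelial markers ran from 27061 to 39093 before and from 3339 to 4408 after culture, and summed fibroblast markers from 15861 to 28871 and from 2319 to 4588. Sums of macrophage and monocyte markers overlapped between the groups, from 32675 to 54899 before and from 21383 to 45014 after culture. Of these 11 markers, 1 was called higher (Mertk) and 5 lower (Ccr2, Siglecf, C1qa, C1qb and C1qc). B cell sums overlapped as well, from 3267 to 5582 and from 2870 to 4058. Those of type 2 conventional dendritic cells did not, from 28558 to 45593 and from 15063 to 26319. Of these 6 markers 4 were called lower, and Sirpa and Cd300a were not called. Klf4 alone gave 16113 of the mean sum of 37777 before culture and 822 of 21326 after it, while Sirpa averaged 14134 and 18100. The labels' extraction protocol speaks of lung RNA rather than of sorted cells. In bulk samples such as these, fewer cells of a type and less RNA per cell cannot be told apart.

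Among the 58 members, 42 were called, that is, they had a limma adjusted p under 0.05 over all 18202 tested genes (72.4%, against 68.8% of all tested genes). Of these, 15 were higher after culture (25.9%, against 34.2% of tested genes) and 27 lower (46.6%, against 34.6%). A called change of at least 2-fold was seen upward in 11 members (19.0%, against 14.1%) and downward in 22 (37.9%, against 18.6%). Adgrd1, Gpr3 and Gpr31b are among the 27 and the 22. They reached the minimum mean only through the group before culture, so the direction of their means followed from the choice. The groups did not overlap for 40 members (69.0%, against 57.3%). The median log2 fold change was −0.37 over the members and 0.0065 over all tested genes. The share called at all lies near that of all genes. The members' shares differ from it mainly in the split, with more of the larger falls, and no test was made of this difference. By level, 17 members averaged 1000 or more, 21 between 100 and 1000 and 20 under 100.

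**Figure D1:**
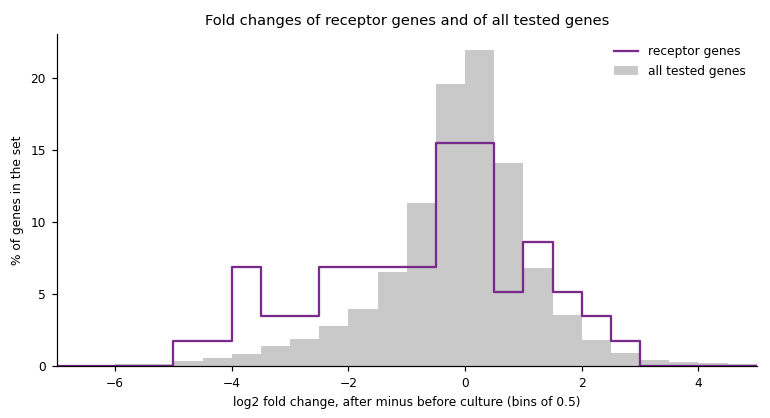
Share of genes (% of each set, y axis) by log2 fold change, after minus before culture (x axis, bins of 0.5), for all 18202 tested genes (grey bars) and for the 58 receptor genes (line). The line lies above the bars in the bins from −5 to −1 and again from 1 to 3.

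**Figure D2:**
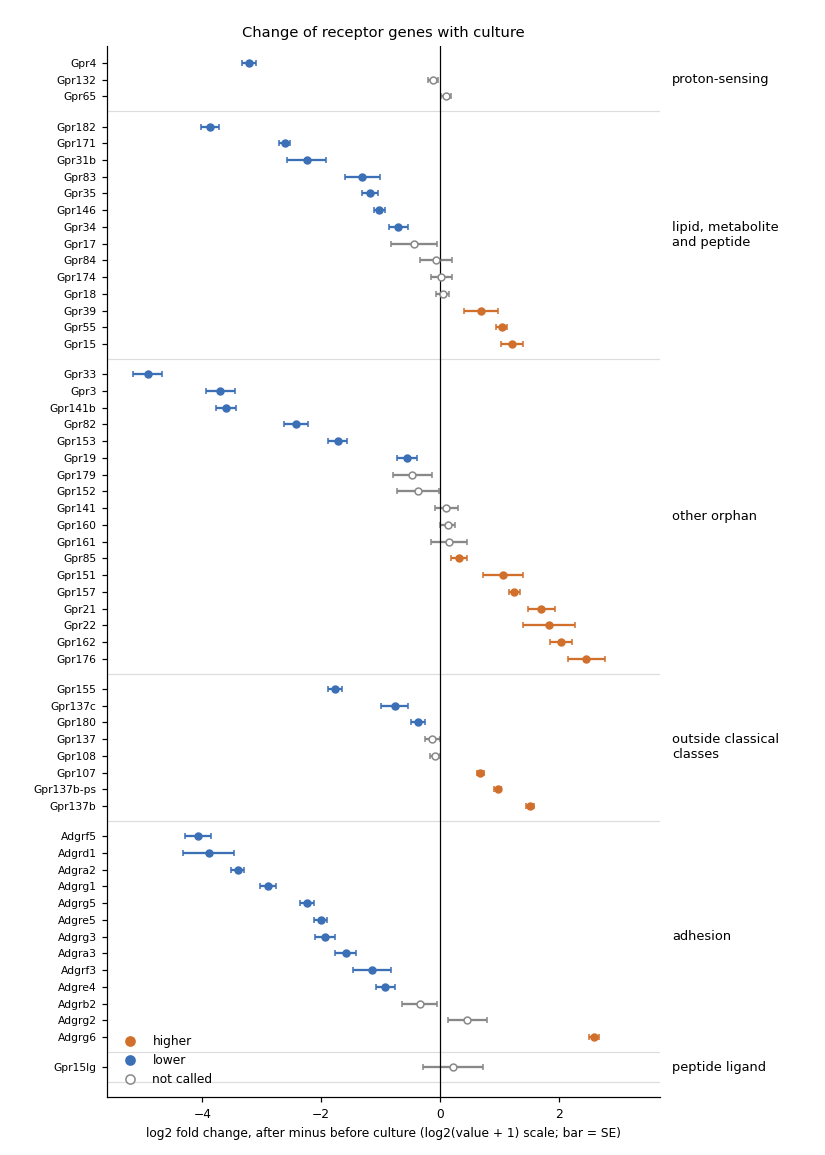
Log2 fold change of 57 of the genes, after minus before culture (x axis, bars are the SE of the limma fit), grouped by role, with orange for called higher, blue for called lower and open grey for not called. Among adhesion receptors 10 of 13 genes lie left of 0 and were called (76.9%, against 34.6% of all tested genes called lower). Adgrg6 alone of them was called to the right.

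Levels can be compared between genes only per length of exon. Per kb, Gpr132 ranked first in both groups, at a mean of 3596 normalized counts per kb before and 3320 after culture. Before culture it was followed by Adgre5 (3461 per kb), Gpr171 (1424) and Gpr141b (1135). After culture it was followed by Gpr137b (1899 per kb), Gpr137b-ps (1132), Adgre5 (865) and Gpr65 (862). These lengths come from all annotated exons of a gene, so a gene read mostly as a short isoform is ranked too low.

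The proton-sensing receptors, which signal when the fluid outside the cell turns acid, held the member with the highest level per kb, Gpr132, which is also known as a receptor for oxidized fatty acids. Gpr132 and Gpr65 were not called, and Gpr4 fell. Gpr132 counts were 9427, 9443, 9793, 9995 and 10158 before culture and 9813, 8046, 9686 and 8506 after it. The groups overlapped, and the means of 9763 ± 326 and 9013 ± 873 were not called (log2 fold change −0.12, limma adjusted p = 0.181). Gpr65, which raises cyclic AMP in acid and is found mainly on leukocytes, gave counts of 1529, 1806, 1558, 1818 and 1593 before culture and 1719, 1870.4, 1558 and 1990.3 after it. Its groups also overlapped, and the means of 1661 ± 139.7 and 1784 ± 187 were not called (log2 fold change 0.10, limma adjusted p = 0.325).

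Gpr4, the proton sensor best known from endothelium, fell. Gpr4 counts were 1669, 1416, 1409, 1233 and 1593 before culture and 168, 127, 170.2 and 160.4 after it. The lowest value before culture was 1233, above every value after it, and the mean was 9.36-fold lower after culture (1464 ± 171 before and 156 ± 19.8 after, SD; log2 fold change −3.22, SE 0.114, limma adjusted p = 4.45e-11). The 10 endothelial markers were all called lower in the same samples, with a summed level 8.503-fold lower, and their part in the fall of Gpr4 was not tested.

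**Figure D3:**
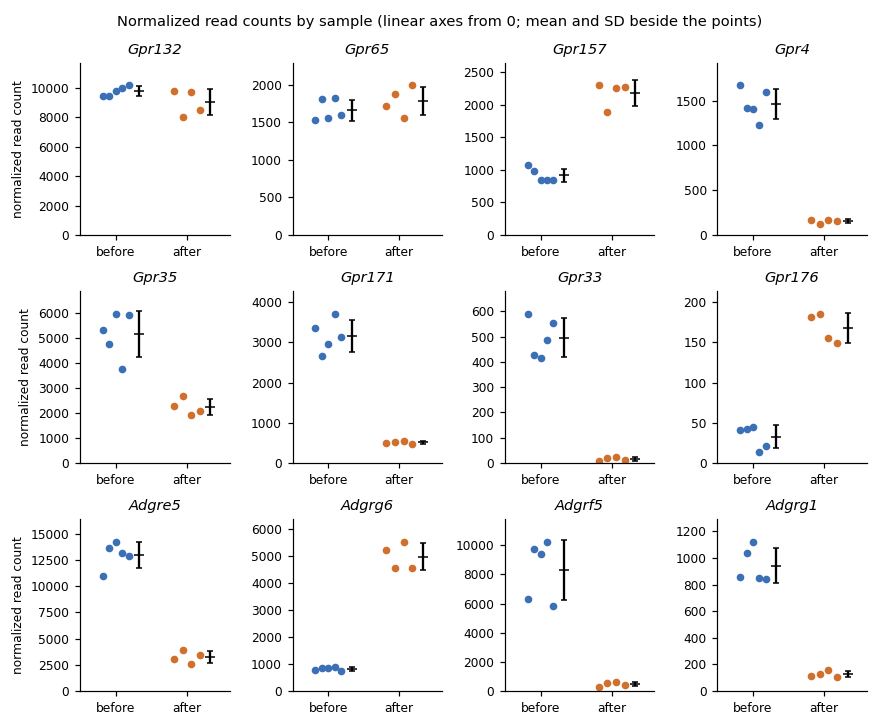
Normalized read counts by sample (y axes, linear from 0) for 12 receptor genes before (blue, n = 5) and after culture (orange, n = 4), with the mean and SD beside the points. Gpr132 and Gpr65 overlap between the groups, Gpr157, Gpr176 and Adgrg6 stand higher after culture, and the other 7 stand lower.

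Receptors for lipids, metabolites and peptides were called at a share near that of all tested genes (71.4% against 68.8%). Of 14 members 3 were called higher (21.4%, against 34.2% of all tested genes), 7 lower (against 34.6%) and 4 were not called. Their median log2 fold change was −0.57, against 0.0065 over all tested genes, and no test was made of these differences. Summed counts were 12727 ± 952 before and 6170 ± 411 after culture. Gpr35, which responds to the tryptophan metabolite kynurenic acid, held the largest share of the sum. Gpr35 counts were 5310.2, 4749, 5979, 3766 and 5932 before culture and 2297, 2685, 1938 and 2095 after it. Its lowest value before culture, in replicate 4, was still above its highest after culture, and the mean was 2.28-fold lower after culture (5147 ± 922 before and 2254 ± 323 after, SD; log2 fold change −1.18, SE 0.134, limma adjusted p = 3.59e-06). Gpr171, a receptor for a peptide cut from the protein proSAAS, fell as well. Gpr171 counts were 3356, 2660.5, 2969, 3718 and 3134 before culture and 492, 532, 559.6 and 471 after it. The groups did not overlap, and the mean was 6.17-fold lower after culture (3168 ± 399 before and 514 ± 39.9 after, SD; log2 fold change −2.62, SE 0.1, limma adjusted p = 6.97e-11). Gpr171 lies within an intron of Med12l, which was also lower after culture (log2 fold change −2.15, limma adjusted p = 2.58e-08), although no exon bases of the 2 genes overlap and they lie on opposite strands.

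Gpr182, an atypical chemokine receptor of endothelium that takes up chemokines without G protein signalling, was among the 5 largest falls of members with a mean of at least 100, with Gpr33, Adgrf5, Gpr141b and Adgra2. Gpr182 counts were 616, 694, 738, 602 and 603 before culture and 53.0, 34.9, 51.9 and 37.3 after it. The highest value after culture was in replicate 1 and the groups did not overlap, and the mean was 14.7-fold lower after culture (651 ± 62.04 before and 44.2 ± 9.51 after, SD; log2 fold change −3.87, SE 0.148, limma adjusted p = 8.93e-11). The endothelial markers described above fell in the same samples, and their part in this fall was not tested. Gpr146 counts were 2028, 2083, 2372, 1876 and 2164 before culture and 1036, 1236, 958 and 927 after it. Gpr146, a receptor linked to cholesterol metabolism in liver, thus showed no overlap, and the mean was 2.02-fold lower after culture (2104 ± 183 before and 1039.6 ± 139 after, SD; log2 fold change −1.02, SE 0.0958, limma adjusted p = 5.79e-07). Gpr34 counts were 146, 125, 125, 165 and 111 before culture and 80.4, 69.8, 89.2 and 87.4 after it. For Gpr34, a receptor for lysophosphatidylserine, the groups did not overlap, and the mean was 1.64-fold lower after culture (134 ± 21.2 before and 81.7 ± 8.81 after, SD; log2 fold change −0.70, SE 0.155, limma adjusted p = 0.00124). Gpr34 and the orphan Gpr82 lie within Cask, which was not called (log2 fold change −0.07). At low levels, Gpr31b fell from 29.9 ± 9.503 to 5.46 ± 1.92 and Gpr83 from 30.6 ± 6.91 to 11.9 ± 3.59 (limma adjusted p = 3.87e-05 and 0.00121). Of the 50-base windows of the longest Gpr31b transcript, 87.6% also occur in transcripts of other genes, so its count is uncertain. Gpr31b is also a member only through the group before culture.

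Upward, Gpr55, a receptor for lysophosphatidylinositol, had the highest level of this group. Gpr55 counts were 762, 724, 632, 553 and 689 before culture and 1472, 1293, 1370.3 and 1358 after it. The groups did not overlap, and the mean was 2.04-fold higher after culture (672 ± 81.8 before and 1373 ± 74.3 after, SD; log2 fold change 1.04, SE 0.0959, limma adjusted p = 5.01e-07). Gpr15, which guides T cells to the large intestine, was read at a lower level. Gpr15 counts were 36.2, 33.4, 32.5, 30.1 and 42.96 before culture and 95.4, 79.6, 74.6 and 78.3 after it. Its groups did not overlap, and the mean was 2.34-fold higher after culture (35.04 ± 4.93 before and 81.98 ± 9.19 after, SD; log2 fold change 1.21, SE 0.182, limma adjusted p = 5.16e-05). The 8 T cell markers summed to 5946 to 6807 before and 5278 to 6856 after culture, with 1 called higher and 3 lower. On the opposite strand, exons of Cpox overlap 12.5% of the exon bases of Gpr15, and Cpox was higher after culture (log2 fold change 0.73, limma adjusted p = 3.95e-05). Gpr39, a zinc-sensing receptor, was called with overlapping groups, at 18.7 ± 5.29 before and 30.9 ± 8.35 after culture (limma adjusted p = 0.0444), and lost the call in 7 of 9 fits that left out 1 sample (every one except without before culture replicate 3 and without after culture replicate 4; adjusted p up to 0.131).

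Among the receptors not called, Gpr84 binds medium-chain fatty acids. Gpr84 counts were 99.98, 120.0, 196, 82.9 and 181 before culture and 143, 171, 85.5 and 108 after it. Gpr174, a lysophosphatidylserine receptor of lymphocytes, gave counts of 172, 247, 182, 309 and 204 before culture and 201, 188, 265 and 237 after it. Gpr18, for which the lipid N-arachidonoyl glycine has been proposed, gave counts of 339, 323, 367, 425 and 354 before culture and 409, 324, 392 and 366 after it. In all 3 the groups overlapped, with limma adjusted p = 0.833 for Gpr84, 0.930 for Gpr174 and 0.732 for Gpr18. Whether reads were counted by strand is not given in the sources used here. Antisense genes overlap 39.5% of the exon bases of Gpr84 and 24.7% of those of Gpr65, and their counts were not used here. Gpr17 was the other one not called, at 16.3 ± 7.899 before and 11.3 ± 3.802 after culture.

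Of the 18 constitutively active and other orphan receptors, 7 were called higher, 6 lower and 5 were not called, with a median log2 fold change of 0.12. The called shares were 38.9% higher and 33.3% lower, near the 34.2% and 34.6% of all tested genes. Summed counts of the 18 were 6820 ± 603 before and 4823 ± 264 after culture. Gpr141b, typed as a long non-coding RNA in the annotation used for positions, gave 3138 of the mean sum before culture and 265 after it. Its fall was larger than that of the sum. Gpr33, a relative of the chemoattractant receptors that is a pseudogene in most humans, had the largest fall of all members. Gpr33 counts were 591, 427, 416, 485 and 555 before culture and 9.72, 18.95, 25.5 and 11.4 after it. The highest value after culture was 25.5 and the lowest before was 416, and the mean was 30.2-fold lower after culture (495 ± 77.1 before and 16.4 ± 7.27 after, SD; log2 fold change −4.92, SE 0.243, limma adjusted p = 1.03e-09). For Gpr3, which raises cyclic AMP without a known ligand, the groups did not overlap either, and the mean was 14.6-fold lower after culture (97.6 ± 16.1 before and 6.71 ± 2.13 after, SD; log2 fold change −3.70, SE 0.242, limma adjusted p = 1.58e-08). With a pseudocount of 8 in place of 1 its log2 fold change was −2.84. Gpr3 averaged under the minimum after culture and is a member only through the group before it. Cd164l2 overlaps 7.46% of the exon bases of Gpr3 and was lower too (log2 fold change −2.31, limma adjusted p = 0.000171). Gpr82 counts were 349, 254, 275, 398 and 258 before culture and 47.7, 43.97, 82.8 and 54.7 after it. Gpr82 thus had no overlap between groups, and the mean was 5.35-fold lower after culture (307 ± 63.8 before and 57.3 ± 17.6 after, SD; log2 fold change −2.42, SE 0.1995, limma adjusted p = 1.60e-07).

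Gpr141 and Gpr141b carry symbols of one orphan receptor family and differed in their calls. As said above, the annotation used for positions types Gpr141b as a long non-coding RNA. Gpr141b counts were 3261, 2726, 2797, 3719 and 3188 before culture and 193, 208, 368 and 290.4 after it. The fall of Gpr141b showed no overlap, and the mean was 11.9-fold lower after culture (3138 ± 400.3 before and 265 ± 80.8 after, SD; log2 fold change −3.60, SE 0.166, limma adjusted p = 5.15e-10). Gpr141 counts were 885, 715, 936, 1129 and 895 before culture and 777, 1267, 678 and 1327 after it. For Gpr141 the groups overlapped, and the means of 912 ± 148 and 1012 ± 332 were not called (log2 fold change 0.10, limma adjusted p = 0.644). The ratio of Gpr141 to Gpr141b was 0.262 to 0.335 before culture and 1.84 to 6.10 after it. Within the group after culture, replicates 2 and 4 were high for Gpr141 and replicates 1 and 3 low.

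**Figure D4:**
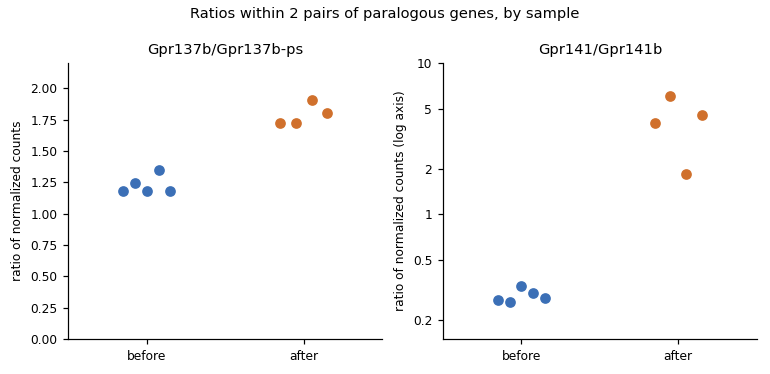
Ratio of normalized counts in each sample (y axes, linear for Gpr137b over Gpr137b-ps and logarithmic for Gpr141 over Gpr141b) before (blue, n = 5) and after culture (orange, n = 4). Every sample after culture lies above every sample before it for both ratios.

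Among called members whose groups did not overlap and whose mean reached 100, the largest rises included those of Adgrg6, Gpr162, Gpr137b and Gpr157. Gpr157 counts were 1069, 978, 853, 839.5 and 847 before culture and 2299, 1885, 2262 and 2276 after it. For Gpr157, a receptor studied in the primary cilium of neural progenitors, the groups did not overlap, and the mean was 2.38-fold higher after culture (917 ± 102 before and 2181 ± 198 after, SD; log2 fold change 1.25, SE 0.0945, limma adjusted p = 6.61e-08). Gpr162 counts were 54.3, 45.8, 60.6, 35.99 and 48.3 before culture and 198, 155, 236 and 228 after it. Gpr162 is an orphan receptor described mainly in brain, and the mean was 4.17-fold higher after culture (48.99 ± 9.25 before and 204 ± 36.8 after, SD; log2 fold change 2.04, SE 0.187, limma adjusted p = 4.69e-07). Of the others called higher, Gpr176, which sets the period of the circadian clock in brain through cyclic AMP, had the largest fold, and the mean was 5.16-fold higher after culture (32.6 ± 14.2 before and 168 ± 18.3 after, SD; log2 fold change 2.46, SE 0.314, limma adjusted p = 1.14e-05). Its values before culture were 40.9, 42.1 and 44.9 in replicates 1 to 3 and 13.4 and 21.5 in replicates 4 and 5. Gpr22 rose from 24.5 ± 13.1 to 77.1 ± 14.6, Gpr151 from 12.6 ± 5.02 to 25.95 ± 5.97 and Gpr85 from 141 ± 14.5 to 176 ± 18.4 (limma adjusted p = 0.00218, 0.0138 and 0.0424). Gpr151 lost the call without after culture replicate 1 (log2 fold change 0.91), and Gpr85 in 6 of 9 fits that left out 1 sample (without before culture replicate 1, 2 or 3 or after culture replicate 1, 2 or 4; adjusted p up to 0.136). Gpr21 rose from 32.2 ± 10.3 to 105 ± 16.6 (limma adjusted p = 1.88e-05) and lies within Rabgap1 on the same strand, which rose as well (log2 fold change 0.97, limma adjusted p = 7.28e-08).

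Lower at modest levels were Gpr153, from 194 ± 24.4 to 58.4 ± 10.6, and Gpr19, from 78.2 ± 7.77 to 52.8 ± 6.43 (limma adjusted p = 5.91e-07 and 0.00823). Gpr160 counts were 338, 374, 307, 296 and 329 before culture and 327, 459, 315 and 347 after it. Gpr160 was not called and its groups overlapped (limma adjusted p = 0.379). Gpr161, a ciliary receptor that holds back Hedgehog signalling, averaged 24.3 ± 3.89 before and 28.8 ± 12.6 after culture and was not called, nor were Gpr152 (21.7 ± 7.04 and 17.8 ± 10.4) and Gpr179 (14.6 ± 4.56 and 10.3 ± 3.14). Gpr15lg, the peptide ligand of Gpr15, averaged 9.298 ± 4.68 and 11.7 ± 7.66 and was not called.

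The 7 genes of membrane proteins outside the classical receptor classes and the pseudogene Gpr137b-ps summed to 11036 ± 125 before and 20131 ± 717 after culture, most of it from Gpr137b and Gpr137b-ps. Of these 8, 3 were called higher (37.5%, against 34.2% of all tested genes), 3 lower (37.5%, against 34.6%) and 2 were not called. Gpr137b, a lysosomal membrane protein that binds the nutrient-sensing Rag GTPases, had the largest rise of them. Gpr137b counts were 3274, 3446, 3243, 3520.4 and 3244 before culture and 9367, 9145, 9536 and 10126 after it. The groups did not overlap, and the mean was 2.85-fold higher after culture (3346 ± 129 before and 9544 ± 420.3 after, SD; log2 fold change 1.51, SE 0.0641, limma adjusted p = 2.39e-10). Gpr137b-ps counts were 2774, 2763, 2739, 2616 and 2739 before culture and 5432, 5298, 4999.8 and 5618 after it. The pseudogene also showed no overlap, and the mean was 1.96-fold higher after culture (2726 ± 63.6 before and 5337 ± 260.4 after, SD; log2 fold change 0.97, SE 0.0625, limma adjusted p = 1.39e-08). The sequences shown above are nearly the same over the coding part, and of the 50-base windows of the longest Gpr137b transcript, 39.6% occur in other genes and 39.2% in Gpr137b-ps. The sum of both does not depend on how such reads were divided between them, and it ran from 5982 to 6210 before and from 14443 to 15744 after culture. The ratio of Gpr137b to Gpr137b-ps was 1.18 to 1.35 before and 1.72 to 1.91 after culture.

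Gpr107, a Golgi protein, had the smallest spread of the members relative to its mean, with a coefficient of variation of 2.2% before and 2.59% after culture. Gpr107 counts were 1776, 1689, 1731, 1782 and 1727 before culture and 2737, 2819, 2718 and 2873 after it. Its groups did not overlap, and the mean was 1.601-fold higher after culture (1741 ± 38.3 before and 2787 ± 72.2 after, SD; log2 fold change 0.68, SE 0.0602, limma adjusted p = 3.39e-07). Gpr155 counts were 774, 720.2, 623, 879.7 and 779 before culture and 218, 202, 259 and 204 after it. Gpr155, a lysosomal sensor of cholesterol, fell with no overlap, and the mean was 3.42-fold lower after culture (755 ± 93.8 before and 221 ± 26.6 after, SD; log2 fold change −1.77, SE 0.115, limma adjusted p = 1.46e-08). Gpr180 fell from 317 ± 42.6 to 244 ± 26.4 (limma adjusted p = 0.0150) but was no longer called after quantile normalization (adjusted p = 0.140). Gpr137c fell from 57.4 ± 12.3 to 33.6 ± 7.86 with overlapping groups (limma adjusted p = 0.00899). Txndc16, which overlaps Gpr137c, was lower as well (log2 fold change −0.67). Gpr108 counts were 1559.6, 1754, 1692, 1589 and 1566 before culture and 1513, 1772, 1288 and 1609 after it. Gpr137 counts were 550.4, 473, 512, 353 and 422 before culture and 435, 475, 362 and 406 after it. Gpr108, a Golgi relative of Gpr107, and Gpr137 were not called, with limma adjusted p = 0.409 and 0.396.

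Of the 13 adhesion receptors, 10 were called lower, 1 higher and 2 were not called, with a median log2 fold change of −1.94. The called shares were 76.9% lower and 7.7% higher, against 34.6% and 34.2% of all tested genes. Summed counts of the 13 were 28576 ± 3078 before and 10186 ± 391 after culture. Adgre5, better known as CD97, a leukocyte receptor that binds CD55, gave the largest part of the sum in the samples before culture. Adgre5 counts were 10996, 13664, 14255, 13198 and 12899 before culture and 3070.4, 3873, 2626 and 3436 after it. The lowest value before culture, in replicate 1, was above every value after culture, and the mean was 3.999-fold lower after culture (13002 ± 1233 before and 3251 ± 530.5 after, SD; log2 fold change −2.01, SE 0.1096, limma adjusted p = 2.68e-09). Exons of Ddx39a, on the opposite strand, overlap 23.8% of those of Adgre5, and Ddx39a was lower as well (log2 fold change −0.96). Adgre4 counts were 966, 1038, 1024, 1104 and 984 before culture and 688, 708, 362 and 480.5 after it. Adgre4, a myeloid receptor of the same family, also did not overlap, and the mean was 1.83-fold lower after culture (1023 ± 53.6 before and 559.7 ± 167 after, SD; log2 fold change −0.92, SE 0.164, limma adjusted p = 0.000220). Within the group after culture, replicates 1 and 2 stood above replicates 3 and 4.

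Adgrf5, which controls the amount of surfactant in alveoli and is made by alveolar epithelium and endothelium, fell most among adhesion genes. Adgrf5 counts were 6348, 9730.2, 9429.6, 10255 and 5862 before culture and 312, 589, 652 and 443 after it. Before culture, replicates 1 and 5 stood lower than the other 3, and the highest after culture was 652, and the mean was 16.7-fold lower after culture (8325 ± 2055 before and 499 ± 153 after, SD; log2 fold change −4.07, SE 0.215, limma adjusted p = 1.92e-09). Adgra2 counts were 2219.5, 2074, 2197, 1791 and 2021 before culture and 192, 233, 198 and 158 after it. Adgra2, a receptor that vessels of the brain need for Wnt signals, showed no overlap, and the mean was 10.6-fold lower after culture (2060.4 ± 172 before and 195 ± 30.6 after, SD; log2 fold change −3.40, SE 0.109, limma adjusted p = 1.87e-11). Adgrd1 counts were 152, 139, 132, 99.6 and 119.9 before culture and 9.72, 12.1, 14.6 and 1.52 after it. Adgrd1, a receptor that raises cyclic AMP, also showed no overlap, and the mean was 13.6-fold lower after culture (129 ± 19.96 before and 9.48 ± 5.66 after, SD; log2 fold change −3.90, SE 0.433, limma adjusted p = 3.06e-06), and after culture replicate 4 was at 1.52, under the floor of 3 reads. Without that sample the log2 fold change of Adgrd1 was −3.30, and with a pseudocount of 8 in place of 1 it was −3.02. Adgrd1 is a member only through the group before culture. Adgra3 counts were 249, 377, 375, 488 and 281 before culture and 110.4, 125, 106 and 114 after it. For Adgra3 the groups did not overlap, and the mean was 3.11-fold lower after culture (354 ± 93.8 before and 114 ± 8.02 after, SD; log2 fold change −1.59, SE 0.173, limma adjusted p = 2.58e-06). Beside these falls, all 10 endothelial and all 8 fibroblast markers were called lower, the latter with a summed level 6.56-fold lower, and 8 of 9 lung epithelial markers were called lower, from sums of 26567 to 45503 to sums of 6111 to 10472. The other epithelial marker, Foxj1, was higher, from 204 ± 33.4 to 1550 ± 127 (limma adjusted p = 1.93e-10). No marker of these 3 lists was at 0 in any sample, and their part in the falls of Adgrf5, Adgra2, Adgrd1 and Adgra3 was not tested.

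**Figure D5:**
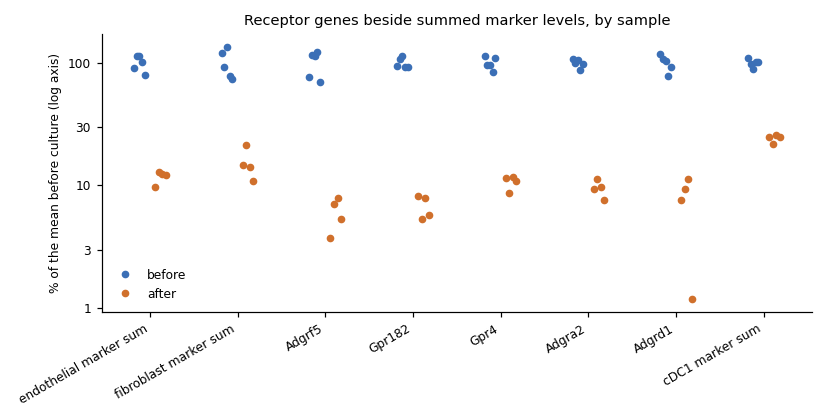
Level of 5 receptor genes and of 3 marker sums in every sample, in % of the mean before culture (y axis, log axis), before (blue, n = 5) and after culture (orange, n = 4). In every row of points the samples after culture lie below those before it, and the cDC1 sum lies highest after culture.

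Adgrg1, known as GPR56, binds collagen III and transglutaminase 2 and marks cytotoxic lymphocytes. Adgrg1 counts were 857, 1039.5, 1123, 852 and 845 before culture and 111, 128, 160.1 and 108 after it. The groups did not overlap, and the mean was 7.43-fold lower after culture (943 ± 129 before and 127 ± 23.9 after, SD; log2 fold change −2.89, SE 0.134, limma adjusted p = 5.72e-10). The 8 NK cell markers summed to 1500 to 3056 before and 371 to 597 after culture, with 7 called lower and none at 0 in any sample, and their part in the fall of Adgrg1 was not tested. Adgrg5 counts were 1835, 1436, 1608, 1372 and 1734 before culture and 405, 306, 369 and 277 after it. Adgrg5, a leukocyte relative of Adgrg1, did not overlap either, and the mean was 4.71-fold lower after culture (1597 ± 195 before and 339 ± 58.1 after, SD; log2 fold change −2.24, SE 0.122, limma adjusted p = 2.67e-09). Adgrg3 counts were 199.9, 207, 309, 188 and 270.3 before culture and 61.8, 69.8, 58.2 and 49.4 after it. For Adgrg3, a receptor of granulocytes, the groups did not overlap, and the mean was 3.93-fold lower after culture (235 ± 52.1 before and 59.8 ± 8.43 after, SD; log2 fold change −1.94, SE 0.174, limma adjusted p = 3.81e-07). The 9 neutrophil markers summed to 13108 to 22539 before and 6909 to 14835 after culture, with 1 of 7 tested called higher, 6 lower, and S100a9, Camp and Ly6g at 0 in at least 1 sample. The one higher was Mmp8, a collagenase, which went from 401 ± 93.4 to 9876 ± 3673 and made up most of the sum after culture, while the 6 others were lower by 5.54-fold (Csf3r) to 320-fold (S100a9). The part of these markers in the fall of Adgrg3 was not tested. Adgrf3 fell from 43.8 ± 15.1 to 19.7 ± 8.13 (limma adjusted p = 0.00554).

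Adgrg6, known as GPR126, a receptor for collagen IV and laminin that raises cyclic AMP and is required for myelination by Schwann cells, was the adhesion gene that rose. Adgrg6 counts were 766, 845, 873, 885 and 746 before culture and 5234, 4539, 5531 and 4556 after it. The lowest value after culture was 4539 and the highest before was 885, and the mean was 6.03-fold higher after culture (823 ± 62.9 before and 4965 ± 497 after, SD; log2 fold change 2.59, SE 0.0851, limma adjusted p = 2.33e-11). Per kb its mean went from 67.3 to 406. Its rise was the largest among members with a mean of at least 100. The endothelial, fibroblast and lung epithelial sums were all lower in the same samples, and the part of these cells in the values of Adgrg6 was not tested. Adgrb2 (19.96 ± 2.51 before and 16.2 ± 5.92 after culture) and Adgrg2 (20.51 ± 4.52 and 30.6 ± 15.7) were not called.

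Genes that act with these receptors were counted from lists of ligands and signalling proteins. Of 93 tested, 15 were called higher, 44 lower and 34 were not called, with a median log2 fold change of −0.34. The called share was 63.4%, against 68.8% of all tested genes, with 16.1% higher and 47.3% lower against 34.2% and 34.6%, and these shares of all tested genes are the background of each list that follows. Among 17 ligands and ligand-making enzymes, 2 were higher and 9 lower. Col3a1, which encodes the collagen bound by Adgrg1, was 16.9-fold lower, and Col4a1, which encodes a chain of the collagen bound by Adgrg6, 4.39-fold lower (limma adjusted p = 3.57e-10 and 5.67e-08). Col3a1 is also on the list of fibroblast markers, which were all called lower. The part of fibroblasts and other non-dendritic cells in these 2 falls was not tested. Cd55, which encodes the partner of Adgre5, was not called (872 ± 144 before and 781 ± 276 after culture, limma adjusted p = 0.359). Napepld, an enzyme that makes N-acyl ethanolamine lipids, was 1.86-fold higher.

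G alpha subunits, which carry the signal from the receptor, had 3 of 16 higher and 9 lower. Gnai3 was 2.05-fold higher (3499 ± 286 and 7172 ± 658), while Gnas, the subunit that activates adenylyl cyclase, fell by 0.67 on the log2 scale and Gna15 by 1.47. Gnai2, with the highest counts of this list, was lower (28426 ± 1478 and 20534 ± 3455, limma adjusted p = 0.00138). The largest falls of this list were in Gnat1 (22.8-fold) and Gnao1 (12.3-fold), both at lower levels. Gnat1 ran from 2.27 to 6.37 after culture, close to the floor of 3 reads, so its fold is imprecise. It passed the minimum mean only through the group before culture. Of 15 G beta and gamma subunits 3 were higher and 6 lower, with Gnb4 4.86-fold higher. RGS proteins, which switch G alpha subunits off, had 1 of 14 higher and 10 lower. Rgs2 was 4.96-fold lower (limma adjusted p = 8.19e-11), Rgs9 8.96-fold and Rgs18 9.10-fold lower, and Rgs12 was 1.88-fold higher. Of 7 receptor kinases and arrestins, which end receptor signalling, 1 was higher (Grk3) and 2 lower (Grk2 and Grk6).

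Adenylyl cyclases, which make cyclic AMP, had 1 of 8 higher and 4 lower. Adcy6 was 5.08-fold higher (limma adjusted p = 2.19e-10), and Adcy4 was 8.04-fold lower. Phosphodiesterases that act on cyclic AMP were tested in 16 rows, 2 of them for Pde2a, with 4 higher and 4 lower. Pde3b was 3.17-fold higher and Pde3a 9.78-fold lower (limma adjusted p = 2.36e-09 and 2.89e-09).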

How the data were processed

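Total RNA of CD103+ lung dendritic cells was sequenced by a company (libraries included, per the labels), and samples were grouped by their title and treatment label (5 before culture, 4 after). In the 1 table deposited, the authors' values are normalized read counts, a signal made by dividing counts per gene by 1 factor per sample. Per the submitters' processing notes, DESeq2 and the build GRCm38 were used, without a version. The aligner, the counting tool, its strand setting, the annotation and any filter are not given in the sources used here. All values (100.0%) were whole multiples of the worth of 1 read, within a tolerance of 0.01 reads, and the factors equalled size factors by the median of ratios. Rows without a symbol (3782 of 49317) were left out; they held 3.87 to 10.9% of reads per sample. No pair of samples within a group agreed within counting noise.

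Genes with a mean of at least 10 were tested with limma 3.58.1 in R 4.3.3 on log2(value + 1), with group as the only term, a mean-variance trend and a two-sided test. P-values were adjusted over all 18202 tested genes by the Benjamini-Hochberg method, with a threshold of 0.05, and only the receptor genes and their lists are printed. The log2 scale with a pseudocount of 1 understates the change of low genes, and printed folds are ratios of group means. The members and all lists were chosen with earlier results of these data known. The scripts were tested on simulated data. Counts cover all members, of which a few results are not reported here.

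Genes given with every value are a list fixed by name (proton-sensing, lipid and adhesion receptors of leukocytes, and proteins outside the classical classes), the 5 largest rises and the 5 largest falls among called members with a mean of 100 or more whose groups do not overlap. For pathway lists, genes with the smallest adjusted p are named. Cd55, Napepld, Gnas, Gnai2, Rgs12 and Grk2 stand beside them for their role, level or direction, chosen after their values were seen. Gpr176 was given its values before culture for the same reason. Positions, exon lengths, overlaps and shared 50-base windows come from GENCODE M21 (GRCm38.p6), which matched 57 of 58 members (not Gpr15lg) and may not be the authors' annotation, and promoters come from RefSeq. Other tools were Python 3.11.15, NumPy 2.4.6, pandas 2.3.3, Biopython 1.88 and matplotlib 3.10.9. Alternatives were pseudocounts of 0.5 and 8, no filter, a minimum mean of 50, TMM scaling, quantile normalization, count models on the recovered reads (edgeR 4.0.16, which called 12562 genes, and DESeq2 1.42.0), a replicate block and leaving out each sample. Reads carry no molecular identifiers in the table, so counting error is a lower limit on the error, and 3 reads were taken as the floor.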

Additional observations from a re-analysis of the deposited data

Results flagged for a closer look

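A total of 3 values of members stood far from the rest of their own group, by a gap that was large against the group's range (Dixon's test at 95%). There were 116 groups of 4 or 5 samples tested and 3 such values, where chance gives about 1 in 20 groups. Gpr157 after culture replicate 2 was the lowest of its group at 1884.8, with the others between 2262.0 and 2299.2. Gpr137b-ps before culture replicate 4 was the lowest at 2615.6, with the others between 2738.6 and 2773.6. Gpr152 before culture replicate 5 was the highest at 34.01, with the others between 17.3 and 20.9.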

How the results depend on the processing

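Under 19 alternatives, members called ranged from 35 to 42 (35 of 44 with a minimum mean of 50; 42 with edgeR and with DESeq2), members higher from 12 to 15, members lower from 23 to 27, pathway genes called from 50 to 63 and all genes called from 9925 to 14150. Leaving out 1 sample gave 39 to 41 members called. Of the 42 called members, 38 kept call and direction under every alternative that could test them, and Gpr39, Gpr85, Gpr151 and Gpr180 lost the call at least once. Replicate numbers in titles and library names were each tried as pairs. Deviations of same-numbered samples correlated at 0.0807, 0.0796, −0.213 and −0.0403 by title number. By library number they correlated at 0.0807, 0.247, 0.349 and 0.0447, all positive. The labels do not say whether same-numbered samples share an origin, and these correlations do not settle it. With a replicate block 39 members (11646 genes) were called by title number and 40 (12836 genes) by library number. Gpr180 lost the call with the block by title number (adjusted p = 0.0663) and kept it with the block by library number (adjusted p = 0.00618).

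Direction reversed only in members that were not called. Gpr174 was −0.0158 (log2) with edgeR, −0.0077 with DESeq2 and −0.0041 with the block by title number, Gpr84 was 0.13 after quantile normalization and 0.0528 with the block by title number, and Gpr15lg was −0.0307 with the block by library number. Leaving out 1 sample at a time gave −0.046 to 0.28 for Gpr141, −0.14 to 0.63 for Gpr15lg, −0.0958 to 0.41 for Gpr161, −0.0683 to 0.14 for Gpr174, −0.0017 to 0.11 for Gpr18 and −0.23 to 0.10 for Gpr84. The cause was not tested. At these depths, the 20 members under a mean of 100 rest on few reads, and genes near the floor of 3 reads have imprecise folds.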
